A study of Callithrix jacchus with 20 samples.

Results

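The somatic cells of marmoset embryoid bodies (EBs) were compared between the protocols with and without Activin A (ActA), a ligand of the TGFβ family. They are the cells that the sort on day 4 set aside because they lacked the surface markers of marmoset primordial germ cell-like cells (cjPGCLCs). They make up 4 of the 20 RNA-seq libraries of the study and were chosen by their sample labels alone, with 2 biological replicates from pre-ME + ActA and 2 from pre-ME − ActA. The question is what an exposure to ActA that ended days before the sort leaves in these cells, across all genes.

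All 4 libraries came from DPZ_cjiPSC#2, 1 induced pluripotent stem cell line (cjiPSCs) derived from foetal fibroblasts of the common marmoset. The cells were kept in cjPSCM, a medium that itself holds TGFβ and FGF2, and were treated for 24 h with 3 μM of the GSK3 inhibitor CHIR and the ROCK inhibitor Y-27632, with or without 100 ng/ml ActA. These precursors of mesendoderm (pre-ME) were then aggregated in a medium with BMP4 (500 ng/ml), SCF (100 ng/ml), EGF (50 ng/ml), LIF (10 ng/ml) and Y-27632, which held no ActA in either protocol, and the EBs were dissociated and sorted on day 4. The titles name INTα6 and EpCAM as the markers that were absent, other label fields name CXCR4 and EpCAM, and the study names INTα6 and CXCR4. The sorted cells can hold several cell types, so in these bulk libraries fewer cells of a type and less RNA per cell cannot be told apart. The 2 protocols were also sequenced as pre-ME and as cjPGCLCs, and these 8 libraries serve here as a measure of size.

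ActA binds activin receptors, which phosphorylate SMAD2 and SMAD3, and it shares this pathway with NODAL, the signal that patterns the primitive streak in the embryo. Among the genes it is known to induce are its own feedback inhibitors, such as SMAD7, SKIL and PMEPA1. BMP4, the main signal in the EBs, acts through other SMADs and drives cells towards germ cell, amnion-like and mesodermal fates.

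The labels of the somatic libraries were checked against markers. The mesoderm factor HAND1 had 4845 and 3588 normalised counts in the 2 somatic libraries without ActA and 3934 and 3497 in those with ActA. The study reported HAND1 as lower in cjPGCLCs than in somatic cells, and its values in cjPGCLCs are not given here. The germ cell gene NANOS3 had between 0 and 3.54 normalised counts in the 4 libraries, against 28.2 ± 19.8 (SD, n = 2) in cjPGCLCs with ActA and 52.8 ± 12.3 (SD, n = 2) in those without. SOX17, the key germ cell factor of primates, was present in both, with 83.0 ± 48.9 and 181 ± 53.5 normalised counts (SD, n = 2 each) in somatic cells without and with ActA, against 2124 ± 39.2 and 973 ± 85.5 in cjPGCLCs. None of the genes behind the sort differed between the 2 somatic groups by the test, at the precision of a fit over all 20 libraries. CXCR4 had 51.3 ± 2.50 without and 67.1 ± 12.7 with ActA, ITGA6, which encodes INTα6, had 178 ± 32.5 and 183 ± 48.6, and EPCAM had 143 ± 3.36 and 153 ± 19.2 (SD, n = 2 each). Their log2 fold changes lay between 0.06 (ITGA6) and 0.39 (CXCR4), with edgeR adjusted p-values of 1, and the 95% interval of CXCR4 was -0.39 to 1.17. In cjPGCLCs the means of the 3 genes were 838 to 1741 normalised counts.

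Reads counted on genes came to 4784783 and 7049621 in the somatic libraries without ActA and to 6202868 and 7171412 in those with ActA, in a series that spans 4784783 to 22066961. In these 4 libraries 3 counts therefore stand for 0.418 to 0.627 CPM. To set the protocols against the replicates, all libraries were thinned to 4784783 reads and the root mean square (RMS) of the log2 differences between 2 libraries was taken over 12970 genes. In somatic cells it was 0.329 and 0.347 between replicates and 0.331 to 0.436 between the protocols, so the ranges overlapped. In pre-ME it was 0.350 and 0.395 between replicates and 0.656 to 0.764 between the protocols. The cjPGCLCs lay between, with 0.346 and 0.360 between replicates and 0.453 to 0.526 between the protocols.

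**Figure D1:**
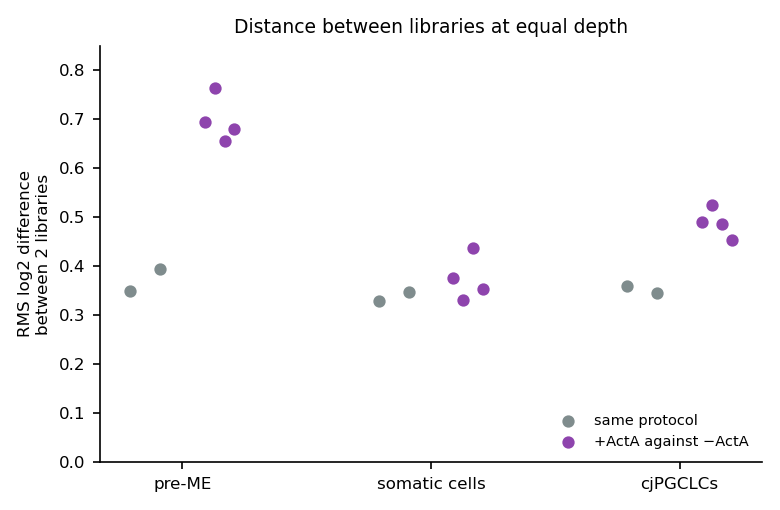
RMS log2 difference between 2 libraries (y axis, over 12970 genes at 4784783 reads per library) in pre-ME, somatic cells and cjPGCLCs. Grey points are the 2 pairs of replicates of each cell type and purple points the 4 pairs of a library with and a library without ActA. Purple stands clear of grey in pre-ME and cjPGCLCs, and overlaps it in somatic cells.

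Few genes passed the test in somatic cells in the fit over all 20 libraries. Those that did included LOC118152023 and NGFR, which rose, and SEMA3C, which fell. edgeR tested 15795 genes, and with the study's thresholds (adjusted p < 0.05 with a log2 fold change larger than 2 either way) 1 was higher with ActA (0.00633%) and 0 were lower (0%). At the adjusted p alone 3 genes were higher (0.019%) and 1 was lower (0.00633%). By the unadjusted p, 336 genes were higher (2.13%) and 280 lower (1.77%). At both thresholds the same fit called 225 genes higher (1.42%) and 109 lower (0.69%) in pre-ME, and 41 higher (0.26%) and 19 lower (0.12%) in cjPGCLCs. With all libraries thinned to the depth of the shallowest somatic one, both thresholds were passed by 2 genes higher and 1 lower in somatic cells, 176 and 80 in pre-ME and 36 and 10 in cjPGCLCs. The number called in somatic cells varied with the libraries in the fit. edgeR on the 4 somatic libraries alone called 79 higher and 60 lower at the adjusted p (1.02% of 13568 genes), with a median size of 0.785 on the log2 scale, and DESeq2 on all 20 libraries called 17 and 12. At both thresholds these fits called 3 higher and 2 lower, and 3 higher and 1 lower. The 4 genes called by the fit over all libraries were also called by these 2 fits. Of the 139 genes of the fit of the 4 libraries, 19 were past both thresholds in pre-ME, where 1.42% of all genes tested were higher and 0.69% lower. Of these 19, 17 went in the same direction. Lower with ActA in both were TFAP2A, GATM, SHISA9 and SPON1, and those higher in both included CLIC6, COL1A1, LOC100408003, LOC103791902, LOC118152023, MEDAG, NEFL, NEFM, NGFR, RGCC, SCUBE1 and SPRY4. ADAMTS18 and CNN1 were lower in somatic cells and higher in pre-ME.

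The largest change among the called genes was that of LOC118152023, a gene named only by its identifier. It had 11.5 and 9.28 normalised counts without ActA, from 5 and 6 reads, and 135 and 151 with ActA, from 76 and 101 reads. The groups were far apart, at 13.9-fold (log2 fold change 3.79 ± 0.46 SE, 95% interval 2.81 to 4.77, edgeR adjusted p = 0.0051). Its log2 fold change was 5.17 ± 0.49 (SE) in pre-ME and 2.76 ± 0.38 (SE) in cjPGCLCs, and the difference between somatic cells and pre-ME did not pass the test (adjusted p = 0.339).

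NGFR, the low-affinity neurotrophin receptor that marks neural crest and mesenchymal progenitors, also rose. It had 94.6 and 145 normalised counts without ActA, and 591 and 334 with ActA. The 2 libraries with ActA differed from each other more than those without. The level with ActA was 3.78-fold that without (log2 fold change 1.92 ± 0.31 SE, edgeR adjusted p = 0.0427). In pre-ME it was far lower, with 1.77 and 2.97 normalised counts without and 9.18 and 14.0 with ActA. In cjPGCLCs it stood at 79.7 and 78.8 without and 944 and 682 with ActA (log2 fold change 3.36 ± 0.31 SE, adjusted p = 4.7e-05).

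SEMA3C, a secreted semaphorin that guides axons and cardiac neural crest cells, was the 1 gene that fell. It had 1001 and 695 normalised counts without ActA and 370 and 261 with ActA. The level without ActA was 2.68-fold that with ActA (log2 fold change -1.42 ± 0.21 SE, edgeR adjusted p = 0.0346). Its log2 fold change was -0.32 ± 0.21 (SE) in pre-ME and 0.06 ± 0.19 (SE) in cjPGCLCs, neither past the test. The differences of the somatic effect from these missed the threshold as well (adjusted p = 0.0555 and 0.0673).

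**Figure D2:**
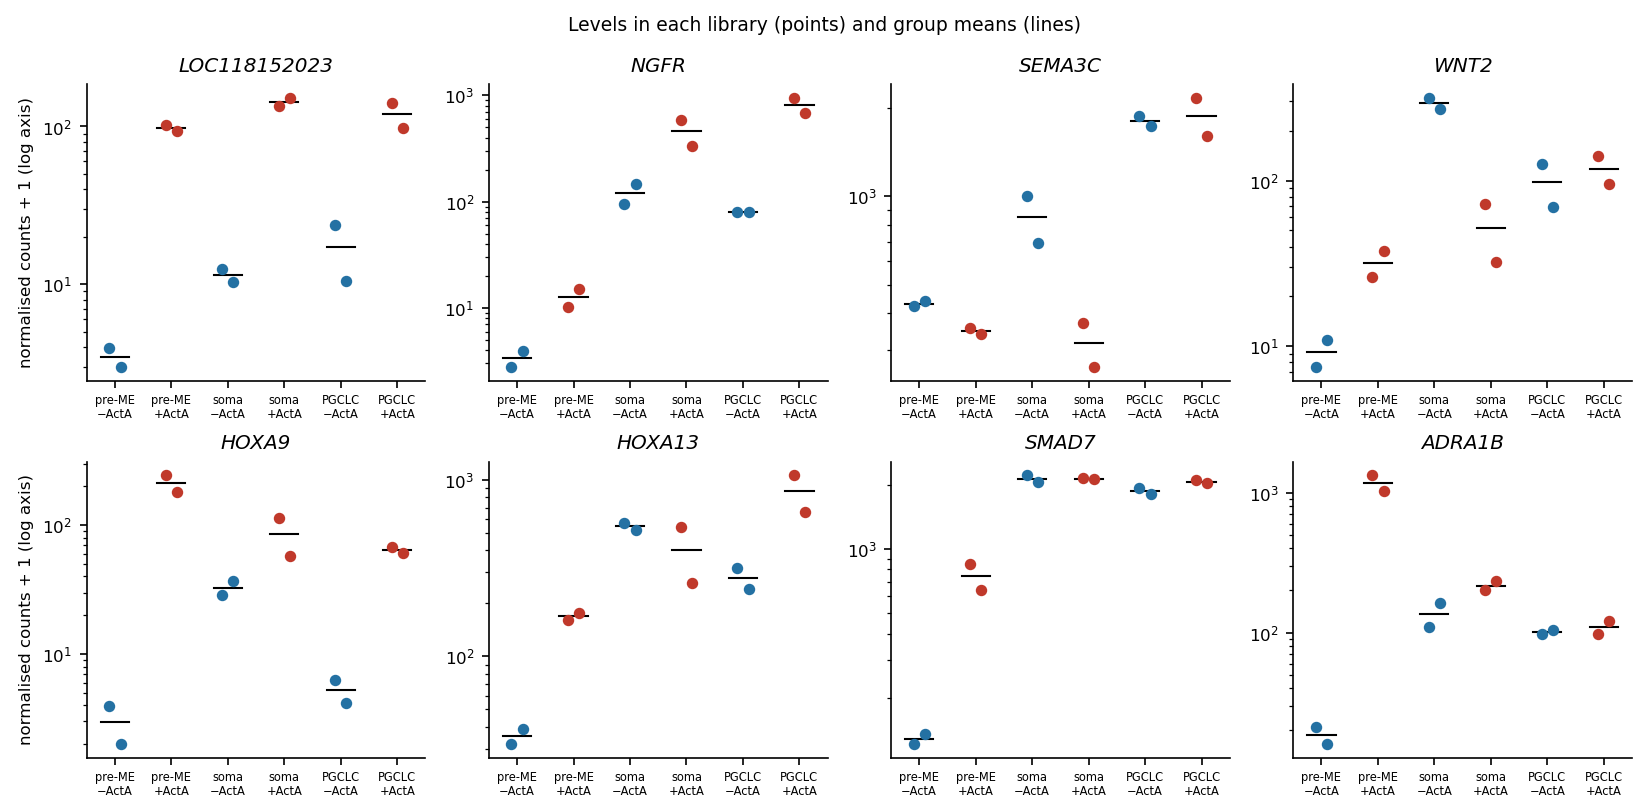
Normalised counts plus 1 (log y axis) of 8 genes in each library of pre-ME, somatic cells (soma) and cjPGCLCs (PGCLC), with points for libraries, lines for group means, blue for −ActA and red for +ActA. LOC118152023 and NGFR keep red above blue in all 3 cell types, SEMA3C has red below blue in somatic cells, WNT2 has red above blue in pre-ME and below it in somatic cells, and SMAD7 and ADRA1B show red far above blue in pre-ME and nearer to it in somatic cells.

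Each of these 3 calls was lost when single libraries were left out, although the directions stayed, and 0 genes then passed both thresholds without replicate 1 or 2 of the somatic cells − ActA. Without replicate 1 of that group the edgeR adjusted p was 0.966 for NGFR, 0.909 for SEMA3C and 0.189 for LOC118152023, at log2 fold changes of 1.66, -1.14 and 3.93. Without replicate 2 of that group NGFR had 0.116 and LOC118152023 had 0.115, while SEMA3C was still called (0.0262). Leaving out replicate 1 with ActA gave 0.271 for NGFR and 0.0851 for SEMA3C, and leaving out replicate 2 gave 0.495 for SEMA3C, with NGFR (0.0316) still called. LOC118152023 was called without either library with ActA (0.0319 and 0.0349).

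The next genes by p-value missed the threshold in the fit over all libraries and are given as values. LOC103791902, a gene named only by its identifier, had 1 and 3 reads without and 24 and 31 with ActA (adjusted p = 0.059), and in pre-ME it had 0.590 and 0.991 normalised counts without and 31.7 and 28.1 with ActA. Among those with more RNA in both libraries with ActA, NEFL, the light chain of neurofilaments, had 514 and 537 normalised counts without and 1261 and 1157 with ActA (2.30-fold, adjusted p = 0.0529). In pre-ME NEFL rose as well, from 1704 and 1763 to 9359 and 7544 normalised counts (log2 fold change 2.27 ± 0.20 SE). The others were IGSF1, LTBP4, ADAMTSL1, PLTP, JADE2, PLAU and TSGA10IP, with log2 fold changes from 0.79 (PLAU and JADE2) to 1.67 (TSGA10IP) and adjusted p-values from 0.0804 (IGSF1) to 0.206 (TSGA10IP). LTBP4, which binds latent TGFβ in the matrix, had 752 and 803 normalised counts without and 1537 and 1617 with ActA (log2 fold change 1.02 ± 0.20 SE, adjusted p = 0.0917).

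Among those with less RNA with ActA, WNT2, a secreted WNT ligand of cardiopulmonary and placental mesoderm, stood furthest from 0 after DPP4. It had 314 and 269 normalised counts without ActA and 70.8 and 31.3 with ActA (log2 fold change -2.53 ± 0.47 SE, adjusted p = 0.0804). In pre-ME WNT2 was low and went the other way, from 6.48 and 9.91 to 25.03 and 36.5 (log2 fold change 1.90 ± 0.61 SE, adjusted p = 0.0355). The 2 effects of WNT2 differed by the edgeR test of the difference (-4.42 ± 0.76 SE on the log2 scale, adjusted p = 0.0045). That test is not one of opposite signs, and the somatic effect itself missed the threshold. WNT2 was also named for its low somatic p, and that somatic effect enters the difference. DPP4, a cell surface peptidase, had 48.4 and 38.7 normalised counts without and 5.31 and 5.96 with ActA, the latter from 3 and 4 reads (log2 fold change -2.90 ± 0.60 SE, adjusted p = 0.157).

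The rest of this group were INKA2, SHISA2, BMPER, FBXO32, FHOD3, EPHA4 and PTCH1, with log2 fold changes from -1.68 (FBXO32) to -0.59 (EPHA4) and adjusted p-values from 0.0804 (INKA2 and SHISA2) to 0.256 (PTCH1). BMPER, which binds BMPs outside the cell, had 184 and 170 normalised counts without and 74.4 and 58.1 with ActA. PTCH1, the receptor and a target of Hedgehog signalling, had 1109 and 984 without and 634 and 458 with ActA. FHOD3, a formin needed for sarcomeres in heart muscle, had 226 and 207 without and 99.2 and 67.1 with ActA. Groups that did not overlap were a condition for naming the symbols with low p-values, these 3 among them, and are no result for them. Over all genes tested, the 4 libraries did not overlap for 2940 genes in the direction higher with ActA (18.6%) and for 3130 in the direction lower (19.8%).

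**Figure D3:**
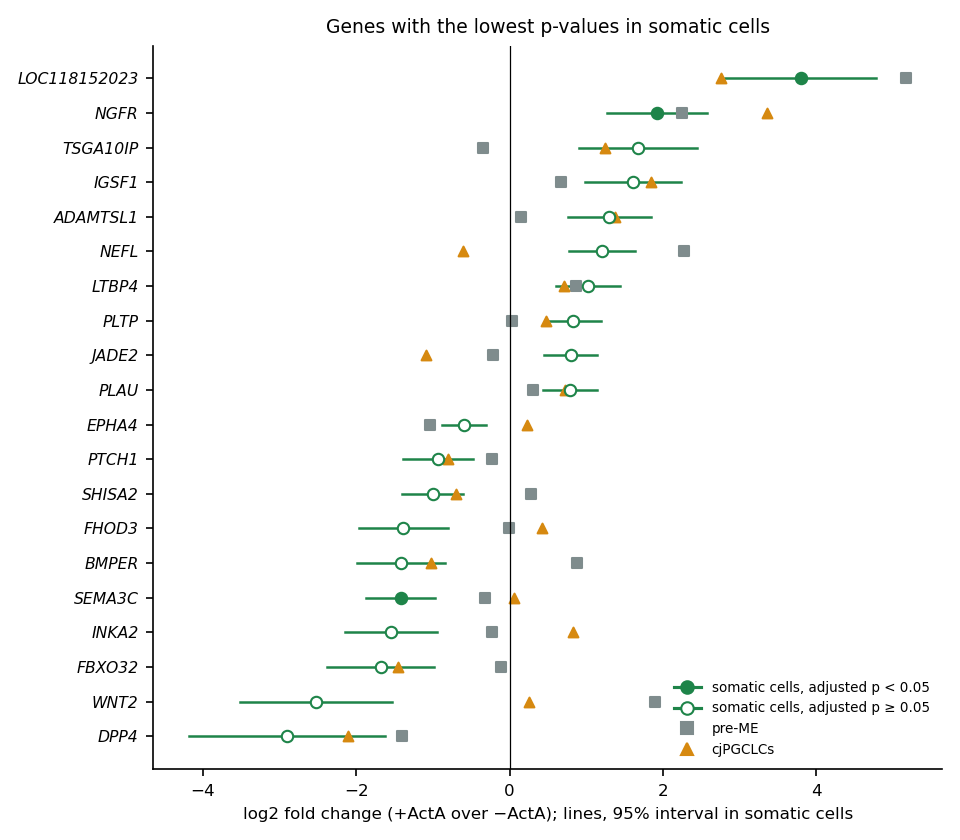
Log2 fold changes (x axis, +ActA over −ActA) of 20 genes named for their low p-values in somatic cells, with green circles and 95% intervals for somatic cells (filled where the adjusted p is under 0.05), grey squares for pre-ME and orange triangles for cjPGCLCs. The filled circles are those of LOC118152023, NGFR and SEMA3C, and WNT2 has its somatic and pre-ME values on opposite sides of 0.

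Most of the response of pre-ME to ActA was not seen at its pre-ME size in the somatic cells. The 225 genes called higher in pre-ME had a median log2 fold change of 2.72 there, of 0.27 in somatic cells (quartiles -0.16 and 0.89) and of 0.50 in cjPGCLCs (quartiles -0.02 and 1.04). In somatic cells 148 of the 225 (65.8%) had a log2 fold change above 0, against 48.8% of all genes tested, and 3 passed the adjusted p in the fit over all libraries, among them LOC118152023 and NGFR. In cjPGCLCs 22 of the 225 were higher at the adjusted p and 1 was lower. In somatic cells the groups did not overlap, in the same direction, for 89 of the 225 (39.6%, against 18.6% of all genes tested). Of these genes 40 had 3 reads or fewer in all 4 somatic libraries. The 117 genes whose mean in the somatic libraries reached 20 normalised counts had a median of 2.61 in pre-ME and 0.27 in somatic cells. Of these 117, 101 had a 95% interval that ended below 2 in somatic cells. Their direction was mostly kept, with 90 (76.9%) above 0 in somatic cells. The groups did not overlap for 61 of them (52.1%) in the same direction and for 10 in the opposite one.

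The 109 genes called lower in pre-ME had a median log2 fold change of -2.62 there, -0.17 in somatic cells (quartiles -0.59 and 0.28) and -0.11 in cjPGCLCs. In somatic cells 60 of the 109 (55%) had a log2 fold change below 0, against 50.8% of all genes tested. The groups did not overlap, in the same direction, for 28 of the 109 (25.7%, against 19.8%), and none passed the adjusted p of edgeR in the fit over all libraries. Of the 43 whose mean in the somatic libraries reached 20 normalised counts, 23 (53.5%) were below 0 in somatic cells. The groups did not overlap for 14 of these 43 (32.6%) in the same direction and for 6 in the opposite one. Of the 109 genes, the fit of the 4 somatic libraries called TFAP2A, GATM, SHISA9 and SPON1 lower. TFAP2A, a surface ectoderm and amnion factor, is an example. In pre-ME it went from 187 and 198 to 24.2 and 15.4 normalised counts, and in somatic cells it stood at 796 and 540 without and 335 and 247 with ActA (log2 fold change -1.19 ± 0.37 SE, adjusted p = 0.671 in edgeR's fit over all libraries). In the fit of the 4 libraries its log2 fold change was -1.18 with an adjusted p of 0.0076. In cjPGCLCs it was lower with ActA as well (log2 fold change -2.06 ± 0.37 SE, adjusted p = 0.0065).

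**Figure D4:**
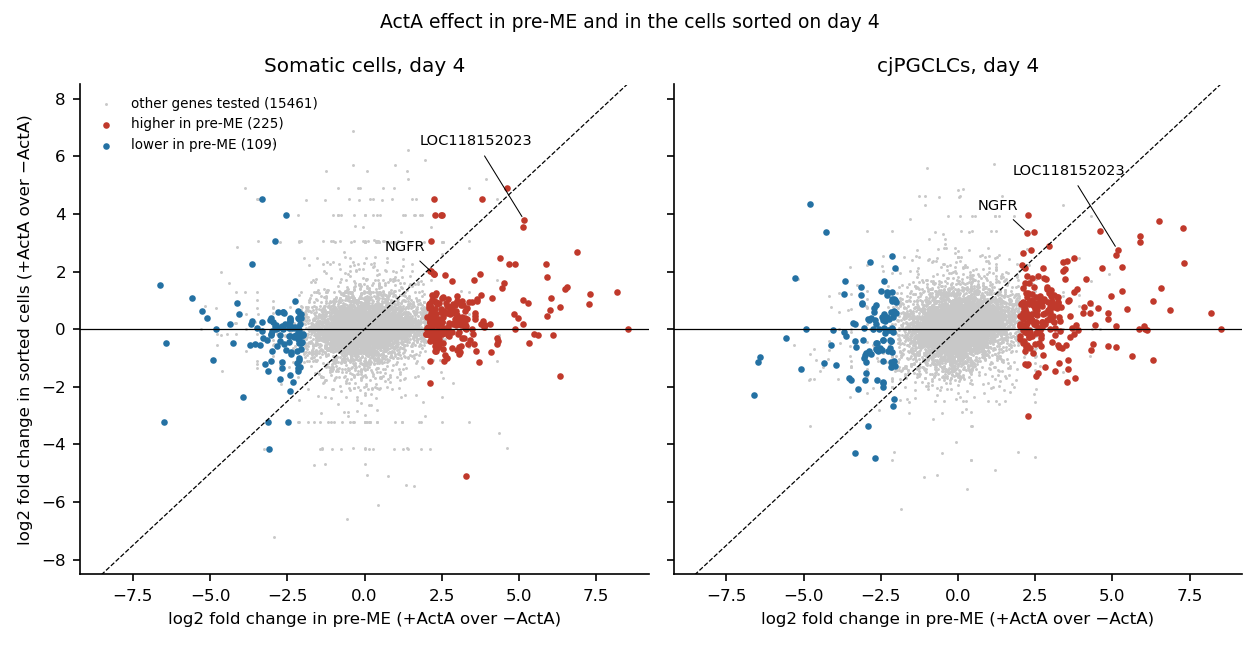
Log2 fold change (+ActA over −ActA) in pre-ME (x axis) against that in somatic cells (left) and cjPGCLCs (right) for 15795 genes, with the 225 genes higher in pre-ME in red, the 109 lower in blue and the line of equal effects dashed. In the left panel 175 of the red and 82 of the blue points lie within 1 of 0 on the y axis, LOC118152023 and NGFR are named, and the horizontal rows of grey points are genes with few reads.

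A test of the difference between the somatic and the pre-ME effect called 317 genes below 0 (2.01%) and 137 above 0 (0.867%). They included 89 of the 225 genes higher in pre-ME, below 0, and 24 of the 109 lower in pre-ME, above 0. The pre-ME effect that chose these genes is also subtracted in this test, so the directions were largely set by the choice. ADRA1B, an adrenergic receptor, was first by p-value, with 20.04 and 14.9 normalised counts without and 1333 and 1029 with ActA in pre-ME, and 108 and 161 without and 200 and 231 with ActA in somatic cells (difference -5.36 ± 0.38 SE, adjusted p = 2.3e-06). SEMA3E was first among those above 0, with 640 and 521 normalised counts without and 105 and 117 with ActA in pre-ME. In somatic cells it had 161 and 184 without and 181 and 242 with ActA, so the groups overlapped. Leaving out a somatic library lowered both counts. Without replicate 1 or 2 with ActA the counts below 0 were 162 and 86 and those above 0 were 57 and 23, and without replicate 1 or 2 of the somatic cells − ActA they were 149 and 127 below and 31 and 58 above.

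The levels of the 225 genes moved in both protocols. Between pre-ME and somatic cells the median change in level was -1.28 on the log2 scale in the protocol with ActA and 1.14 in the protocol without. The level in somatic cells was the lower one for 171 of the 225 genes with ActA and the higher one for 166 without. These genes were chosen by the same pre-ME libraries, so the changes are a description and were not tested.

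The Activin and NODAL pathway, taken from a list of 31 ligands, receptors, SMADs and feedback genes, had members that changed in pre-ME and none that passed the test in somatic cells. Of 26 members tested, 10 rose and 2 fell in pre-ME at the adjusted p, with all genes tested at 11.4% and 9.55%, and 0 changed in somatic cells, where 1 was higher and 0 were lower at an unadjusted p under 0.05 and DESeq2 called 0. The median log2 fold change over the list was 0.41 in pre-ME and 0.01 in somatic cells, against -0.02 and -0.003 over all genes tested. In somatic cells 20 of the 26 had a 95% interval within 1 of 0 on the log2 scale. NODAL itself had 0 and 0.991 normalised counts without and 224 and 53.4 with ActA in pre-ME, and 0 to 2 reads in each somatic library.

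In somatic cells of both protocols the feedback inhibitors SMAD7 and SKIL stood above their level in pre-ME without ActA. SMAD7 is on the BMP list as well and the EB medium held BMP4, and which signal set these levels was not tested. SMAD7 had 120 and 134 normalised counts without and 847 and 638 with ActA in pre-ME (log2 fold change 2.54 ± 0.22 SE). In somatic cells it had 2214 and 2047 without and 2146 and 2124 with ActA, a log2 fold change of 0.01 with a 95% interval of -0.40 to 0.42. SKIL had 459 and 410 normalised counts without ActA in pre-ME, and 1540 and 1795 without and 1680 and 1968 with ActA in somatic cells. For SMAD7, SKIL, PMEPA1, FURIN, SMAD3 and FSTL3 the somatic effect was below that in pre-ME at the adjusted p, from 1.8e-04 (SMAD7) to 0.0218 (PMEPA1). The members with the most reads, FSTL1 and FST of the follistatin family, had log2 fold changes of -0.07 and 0.01 in somatic cells.

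The HOX A cluster, whose genes set position along the body axis, had members that rose with ActA in pre-ME and in cjPGCLCs, and none past the test in somatic cells. Of 8 members tested 5 rose in pre-ME, where 11.4% of all genes were higher and 9.55% lower at the adjusted p, 4 in cjPGCLCs, where 1.37% of all genes were higher and 1.16% lower, and 0 in somatic cells, where edgeR had 1 higher at an unadjusted p under 0.05 and DESeq2 called 0. The median log2 fold changes were 2.53, 1.87 and 0.61. HOXA9 had 2.95 and 0.991 normalised counts without and 243 and 178 with ActA in pre-ME. In somatic cells it had 27.7 and 35.6 without and 113 and 56.6 with ActA, which did not overlap (log2 fold change 1.39 ± 0.35 SE, adjusted p = 0.355), and the difference from pre-ME was -5.12 ± 0.60 (SE, adjusted p = 1.9e-04). HOXA10 and HOXA11 overlapped, with 39.2 and 57.2 normalised counts of HOXA10 without and 103 and 32.8 with ActA in somatic cells. HOXA13, the most 5′ gene, was high in both protocols, with 572 and 523 without and 545 and 261 with ActA. In each of HOXA9, HOXA10, HOXA11 and HOXA13 the first library with ActA was above the second. The list median was -0.09 without that first library and 1.07 without the second, over the 9 members tested in those fits.

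The list of lateral plate, extraembryonic and cardiac mesoderm had no member past the test in somatic cells in the fit over all libraries. Of 25 members tested 9 rose in pre-ME, where 11.4% of all genes did at the adjusted p, with a median of 0.78, and 0 changed in somatic cells by edgeR or DESeq2, with a median of -0.18. The 4 somatic libraries did not overlap for 11 members lower with ActA (44%) and for 6 higher (24%), against 19.8% and 18.6% of all genes tested. By the unadjusted p 7 were lower and 1 higher, against 1.77% and 2.13% of all genes. The fit of the 4 somatic libraries alone, which called 60 of 13568 genes lower, called 6 of the 21 members it tested lower and 0 higher. They were the heart transcription factors GATA4, GATA5 and HAND2, the contractile genes MYL7 and ACTA2, and PDGFRA. Their adjusted p-values in the fit over all libraries were 0.355 to 0.904.

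GATA5, a cardiac GATA factor, had 567 and 362 normalised counts without and 200 and 130 with ActA (log2 fold change -1.49 ± 0.38 SE). HAND2 had 3510 and 2567 without and 1732 and 662 with ActA (log2 fold change -1.34 ± 0.39 SE). In both the second library with ActA was the lowest. MYL7, the atrial myosin light chain, had 503 and 283 without and 166 and 65.6 with ActA (log2 fold change -1.76 ± 0.50 SE). PDGFRA, a receptor of mesodermal mesenchyme, had 8217 and 6436 without and 4303 and 3481 with ActA. In all 4 genes the libraries with ActA lay below those without. HAND1 overlapped between the groups.

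Mesenchyme and extracellular matrix genes, of which 29 were tested, rose in 12 cases and fell in 1 in pre-ME, and in 8 and 1 in cjPGCLCs. Of all genes tested 11.4% were higher and 9.55% lower in pre-ME and 1.37% and 1.16% in cjPGCLCs. In somatic cells 0 passed, the median was -0.01, and by the unadjusted p 2 were higher and 3 lower. COL1A1, the main fibrillar collagen, had 2285 and 2469 normalised counts without and 5294 and 5502 with ActA in somatic cells, far apart next to the spread of the 4 libraries. Its log2 fold change was 1.19 ± 0.62 (SE, adjusted p = 1) in the fit over all libraries and 1.19 with an adjusted p of 4.4e-05 in that of the 4 libraries alone, which also called COL5A2 and THY1 higher. In the fit of the 4 libraries 3 of 29 members were higher and 0 lower, with 79 of 13568 genes higher and 60 lower. FN1 and MMP2, the members with the most reads, had log2 fold changes of -0.13 and 0.10.

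None of the other lists had a member past the adjusted p of edgeR in somatic cells. By the unadjusted p the most that any of them had were 4 members higher (endothelium and blood) and 3 lower (WNT), and DESeq2 on all libraries called JAG1 of the NOTCH list higher and WNT2 and BMPER, of the WNT and BMP lists, lower. The counts in pre-ME stand beside 11.4% of all genes higher there and 9.55% lower. The WNT list (39 tested) had 11 members higher and 1 lower in pre-ME and a somatic median of -0.19. The fit of the 4 libraries called 79 of 13568 genes higher and 60 lower. Of the 26 WNT members it tested, WNT2, SFRP1, WNT5A and NKD1 were lower and SFRP2 higher. The FGF and ERK feedback list (24 tested) had 9 members higher and 4 lower in pre-ME and a somatic median of 0.06. ETV4, a target of FGF signalling, had 46.6 and 30.7 normalised counts without and 676 and 492 with ActA in pre-ME, and 122 and 119 without and 149 and 107 with ActA in somatic cells. The NOTCH list (19 tested) had 7 higher and 1 lower in pre-ME and a somatic median of 0.20. Its ligand JAG1 had 1730 and 3038 normalised counts without and 4026 and 4958 with ActA in somatic cells (log2 fold change 0.91 ± 0.20 SE, adjusted p = 0.207). The BMP list (30 tested) had 10 higher and 3 lower in pre-ME and a somatic median of -0.04, with ID1, a direct BMP target, at 2474 and 2175 without and 2263 and 2205 with ActA.

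Among the lists of cell types, the somatic medians were -0.11 for amnion and surface ectoderm (29 tested), -0.12 for trophoblast (8 tested), 0.02 for definitive endoderm (20 tested), 0.39 for endothelium and blood (22 tested), 0.15 for neural ectoderm and neural crest (20 tested), -0.03 for primitive streak (18 tested), 0.02 for pluripotency (15 tested) and 0.35 for primordial germ cell genes (18 tested, of which 5 had 3 reads or fewer in all 4 libraries). Leaving out 1 library moved several of these. The filter of those fits kept more members of some lists, such as 24 of definitive endoderm. The median of endothelium and blood was 0.07 without the first library without ActA and 0.84 without the second. That of the germ cell list was 0.07 without the first library with ActA and 0.62 without the second library without ActA. The primitive streak median was -0.28 without the first library with ActA and 0.23 without the second. The amnion median was 0.08 without the first library without ActA, and the trophoblast median was 0.07 without the second library with ActA and 0.04 without the second without ActA. Neural ectoderm lay between 0.07 and 0.21, definitive endoderm between -0.03 and 0.08 and pluripotency between -0.02 and 0.10. The summed level of the germ cell list was 2986 and 3353 normalised counts without and 3541 and 3758 with ActA. In that list NANOG had 92.2 and 97.5 without and 158 and 203 with ActA (log2 fold change 0.93 ± 0.34 SE, adjusted p = 0.992). The medians of the cell cycle (28 tested), stress response (25 tested), hypoxia and glycolysis (27 tested) and apoptosis lists (20 tested) were -0.13, 0.12, 0.03 and -0.006. Paraxial and intermediate mesoderm (14 tested), retinoic acid genes (16 tested) and CDX and HOX cofactors (11 tested) had medians of 0.20, 0.01 and 0.04. That of paraxial and intermediate mesoderm was 0 without either library with ActA, over the 16 members tested in those fits. Of its 14 members 7 had 3 reads or fewer in all 4 libraries. The abundant genes used as a sign of RNA quality (15 tested) had a median of -0.11. The fit of the 4 libraries alone called 79 of 13568 genes higher and 60 lower. In it, SOX2, CLDN6, SPRY4, JAG1 and PFKP were the further list members called higher, and TFAP2A, TEK and BMPER those called lower.

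**Figure D5:**
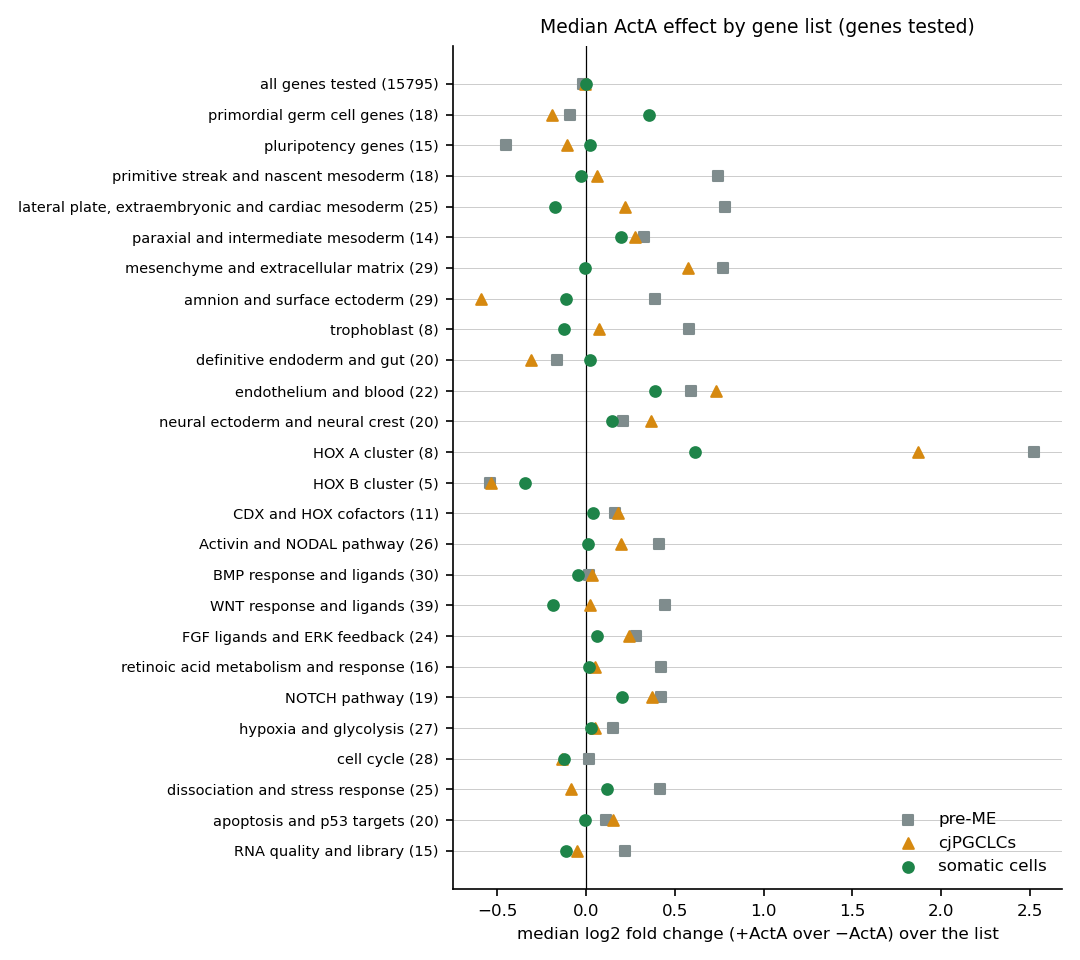
Median log2 fold change (x axis, +ActA over −ActA) of each gene list with at least 5 genes tested (number in parentheses) in pre-ME (grey squares), cjPGCLCs (orange triangles) and somatic cells (green circles). The green circles lie within 0.4 of 0 except for the HOX A cluster at 0.61.

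The effect of ActA in somatic cells was also set against that in cjPGCLCs of the same 2 protocols. The difference passed the test for 6 genes above 0 (0.038%) and 4 below 0 (0.0253%). Without replicate 1 with ActA it did for 2 above and 9 below 0, and without any other somatic library for 1 above and 0 below. JADE2, a chromatin factor, had the lowest p, with 164 and 196 normalised counts without and 306 and 321 with ActA in somatic cells, and 1633 and 1453 without and 685 and 776 with ActA in cjPGCLCs. NEFL also had estimates of opposite sign, with 2656 and 2722 without and 1696 and 1850 with ActA in cjPGCLCs. Its difference passed the test (1.81 ± 0.27 SE, edgeR adjusted p = 0.0299). Neither effect passed by itself, with a log2 fold change of -0.60 in cjPGCLCs (adjusted p = 0.113) and an adjusted p of 0.0529 in somatic cells. POU3F2, a neural POU factor, stood at 394 and 449 without and 411 and 425 with ActA in somatic cells, where the groups overlapped, and at 134 and 117 without and 669 and 408 with ActA in cjPGCLCs. For NGFR and LOC118152023 the differences were -1.44 and 1.03 on the log2 scale and did not pass the test.

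What the fit over all 20 libraries could call was set by its precision, with a spread estimated over all 10 groups. Its median SE of a log2 fold change in somatic cells was 0.223 over all 15795 genes. It was 0.199 over the 13114 genes whose mean in the 4 somatic libraries reached 20 normalised counts. Among the latter, 10818 genes (82.5%) had a 95% interval within 1 of 0 on the log2 scale and 12944 (98.7%) within 2. For the remaining genes a change of that size was not excluded by this fit. Its SEs are not those of the 4 somatic libraries alone, whose own fit called 139 of 13568 genes at the adjusted p.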

How the data were processed

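Poly(A) RNA was sequenced from 20 libraries of 10 groups with 2 biological replicates each, grouped by their labels, of which the 4 of the somatic cells are compared here. From 40 ng of RNA, the authors made libraries (an NEBNext Ultra II kit, named directional in the labels), mapped the reads with STAR 2.7.0a to calJac4 after FastQC 0.11.8, counted them per gene with HTSeq 0.11 and deposited raw counts. They also deposited these counts divided by DESeq2 size factors, a normalised signal called normalised counts here. The strand setting and annotation release are not given in the sources used here, and neither is which of 2 RNA kits served which library. Overlapping genes and genes with near-identical copies can therefore share or lose reads.

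Of 25100 named genes, 9025 have only a LOC name, and 21267 were found in the RefSeq table of calJac240_pri. HTSeq's lines for reads outside genes (21.2% to 22.8% in the somatic libraries) and ambiguous reads (0.282% to 0.288%) were left out, as were 2 unnamed rows (at most 0.00295%). The quasi-likelihood F-test of edgeR 4.0.16 (R 4.3.3) was run on the raw counts of all 20 libraries, with 1 coefficient per group, TMM scaling and edgeR's filter by group. It kept 15795 genes and had 10 residual degrees of freedom, and the common dispersion was 0.0203. P-values were adjusted by Benjamini-Hochberg within each comparison. Called genes had an adjusted p under 0.05, or that and a log2 fold change beyond 2, the study's thresholds. Fold changes are with over without ActA, and 95% intervals are approximate, from the F-test. Intervals and the floor of 3 counts cover no error beyond that of these libraries. P-values measure the spread between replicates of 1 line. The 2 replicates of each somatic group differed by more than sampling noise (chi-square over degrees of freedom 3.23 and 4.02). This ratio was 40.2 and 42.4 in the 2 groups of cjiPSCs and 4.72 to 15.4 in the other groups. The fit over all 20 libraries shares 1 estimate of the spread with these groups.

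The genes, gene lists and comparisons were chosen with earlier results of these data known. Named were, among symbols with groups that did not overlap and a mean of at least 20 normalised counts in the higher group, the 10 with the lowest p each way, further any gene past both thresholds, members of the lists, genes called in pre-ME and somatic cells, up to 8 genes each way of each test of a difference and the sort markers. List members that are neither called nor among the 2 most abundant were named after their values were seen. Of the genes this rule names, 2 are not reported here, and one of them was left out of its list. The scripts were tested on simulated counts. Alternatives were DESeq2 1.42.0, fits of the 4 somatic or 8 sorted libraries, DESeq2's size factors, other filters, thinned counts, a replicate block, glmTreat and each somatic library left out. Figures were drawn with matplotlib 3.10.9.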

Additional observations from a re-analysis of the deposited data

Results flagged for a closer look

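The effect of ActA differed between somatic cells and pre-ME by the interaction test in 137 genes above 0 and 317 below 0. Among the genes above 0, with the lowest p-values of those named by the rule, were SEMA3E (2.71 on the log2 scale, somatic effect minus pre-ME effect), LGR4 (1.77), NPY1R (3.85), SSBP2 (1.89), SPON1 (1.80), SVIP (2.37), EFNA5 (1.25) and RXRG (3.01). Those below 0 were ADRA1B (-5.36), PHLDB2 (-2.15), ETV4 (-3.78), NOTUM (-2.43), KIF26B (-1.66) and ADAMTSL2 (-4.57).

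Against cjPGCLCs the effect in somatic cells differed in 6 genes above 0 and 4 below 0. Above 0 were JADE2 (1.88 on the log2 scale, somatic effect minus cjPGCLC effect), NEFL (1.81), FGFR4 (1.13), PARP14 (1.45), MEDAG (2.99) and WDFY2 (1.02). Below 0 were POU3F2 (-2.11), INKA2 (-2.38), PDLIM3 (-2.45) and PID1 (-2.72). With 2 libraries in each group, single libraries were not examined for outliers.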

How the results depend on the processing

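Each group has 2 libraries, and the number of genes called also varied with the libraries that shared the estimate of the spread. The log2 fold changes of the 20 genes followed under other settings kept their sign under each setting run, but few counts kept their size. List medians, which carry no test, changed sign for several lists when 1 somatic library was left out, and ranged from -0.09 to 1.07 for the HOX A cluster, -0.43 to 0.12 for HOX B, -0.29 to 1.56 for HOX D, -0.28 to 0.23 for primitive streak, -0.24 to 0.15 for mesenchyme, -0.14 to 0.08 for amnion and -0.12 to 0.07 for trophoblast. In fits with 1 somatic library left out, the filter kept more members of some lists, so their medians are not over the same genes. In somatic cells edgeR on all 20 libraries called 1 gene higher and 0 lower at both thresholds, and 3 and 1 at the adjusted p alone. At both thresholds and then at the adjusted p, higher and lower, DESeq2 on all libraries gave 3, 1, 17 and 12, edgeR on the 4 somatic libraries 3, 2, 79 and 60, no filter on low counts 5, 5, 63 and 59, counts thinned to equal depth 2, 1, 4 and 2, and edgeR on 16 libraries without the cjiPSCs, chosen after seeing the data, 3, 2, 29 and 17. DESeq2 on the 4 libraries gave 1 and 1 at both thresholds and 45 and 41 at the adjusted p, edgeR on the 8 sorted libraries 1 and 1 and then 10 and 8, and a test against a log2 fold change of 2 (glmTreat) 0 higher and 0 lower. Leaving out each somatic library gave 0 to 2, 0 to 0, 0 to 2 and 0 to 1.

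Somatic effects differed from those in pre-ME in 298 genes above and 589 below 0 by DESeq2, 554 and 735 without a filter, and 23 to 58 and 86 to 162 with 1 somatic library left out. From those in cjPGCLCs they differed in 42 and 52 by DESeq2, 97 and 172 without a filter, 12 below 0 at equal depth, and 1 to 2 and 0 to 9 with 1 library left out. The cause of these shifts was not tested. Of the values of named genes under other settings, 124 kept their side of the threshold, 46 moved to a call and 10 lost one.

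The replicate numbers are no pairing by the labels, and the deviations of same-numbered somatic libraries had a correlation of 0.0873 across 15795 genes, against 0.227 in pre-ME and 0.234 in cjPGCLCs. With a replicate block, 5 genes were higher and 1 lower at the adjusted p in somatic cells, 1 and 0 at both thresholds, and the differences from pre-ME came to 103 above and 286 below 0 and those from cjPGCLCs to 14 above and 24 below 0. NGFR had an adjusted p of 0.0641 with the block and 0.0565 with DESeq2's size factors.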
